A study of Homo sapiens with 21 samples.

Results

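Of 73564 regions of DNA-RNA hybrid signal in MDA-MB-436 breast cancer cells, 1722 (2.34%) were broad R-loop domains, that is, regions with a peak in all 6 S9.6 libraries and a merged width of 10000 bp or more. Regions were made by merging the deposited peaks of these libraries on chromosomes 1 to 22 and X wherever they shared at least 1 bp. Presence in the libraries and width chose the members, so both are described without a test. The domains took up 33.0 Mb, which was 29.3% of the length of all regions and 55.4% of the length of the 8016 regions with a peak in all 6 libraries. The other 6294 of these, all under 10000 bp, served as the comparison and are called narrower shared regions. Counting regions of 10000 bp or more in any number of libraries gave 1754.

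MDA-MB-436 is an established, basal-like breast cancer line that carries a mutated BRCA1 gene. The cells were transduced with a doxycycline-inducible lentiviral hairpin, either a control (shScr) or one against RNF8 (shRNF8), a ubiquitin ligase of the DNA break response. The S9.6 antibody, which binds DNA-RNA hybrids, was used to precipitate sonicated chromatin for sequencing (DRIP-seq) in 2 shScr libraries and 4 with shRNF8. For each of them there is a second library labelled as RNase-treated, and mRNA sequencing covers 3 libraries of either hairpin. All libraries come from this 1 cell line and 1 RNF8 hairpin is labelled, with no rescue; the labels do not call the replicates separate cultures, and p-values then speak only of the scatter among these libraries, which could be technical. The kind of RNase is given by a code only, and doxycycline dose and time are not given in the sources used here.

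An R-loop forms when RNA pairs with the DNA strand it was copied from and leaves the other strand unpaired. R-loops are known to form behind RNA polymerase at GC-rich gene starts and past gene ends, where a G-rich displaced strand favours them. RNase H removes the RNA of such a hybrid, helicases unwind it, and the exonuclease XRN2, named in the title of the study as a target of RNF8, degrades the RNA left behind the polymerase at termination. S9.6 can also bind double-stranded RNA, which is why RNase-treated controls are run.

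The promoters of 4 genes within domains are shown because results below turn on them, beside those of 2 highly expressed genes with no S9.6 region anywhere over the gene. Each is the RefSeq sequence (GRCh38.p14, the build of the files' hg38) from 250 bases before to 50 bases after the annotated start, 5′ to 3′ on the gene's strand. Capitals mark runs of G of at least 4 bases (GGGG), which in P4HB, TPI1 and CALR all lie before the start. P4HB (chr17:81860486-81860785, minus strand) starts in the widest domain and TPI1 (chr12:6867281-6867580, plus strand) in another of the 10 widest. CALR (chr19:12938359-12938658, plus strand) starts in the widest domain that kept a peak in all 6 RNase-treated libraries, and JUND (chr19:18281573-18281872, minus strand) in the domain whose peak height differed between the hairpins. RPLP1 (chr15:69452568-69452867, plus strand) and COX7B (chrX:77899218-77899517, plus strand) lay in no region.
P4HB: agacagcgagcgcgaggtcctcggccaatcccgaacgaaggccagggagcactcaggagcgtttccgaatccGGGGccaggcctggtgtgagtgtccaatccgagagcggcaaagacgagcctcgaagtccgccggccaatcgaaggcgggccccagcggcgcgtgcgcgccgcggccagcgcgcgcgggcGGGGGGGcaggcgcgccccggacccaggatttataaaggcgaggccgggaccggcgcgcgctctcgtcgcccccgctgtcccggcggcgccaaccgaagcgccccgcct
TPI1: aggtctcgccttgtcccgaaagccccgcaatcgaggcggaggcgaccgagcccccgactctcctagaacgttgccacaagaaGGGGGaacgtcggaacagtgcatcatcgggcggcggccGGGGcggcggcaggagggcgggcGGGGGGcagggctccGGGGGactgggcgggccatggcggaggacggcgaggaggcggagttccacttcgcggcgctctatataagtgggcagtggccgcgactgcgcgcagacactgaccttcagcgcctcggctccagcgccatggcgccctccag
CALR: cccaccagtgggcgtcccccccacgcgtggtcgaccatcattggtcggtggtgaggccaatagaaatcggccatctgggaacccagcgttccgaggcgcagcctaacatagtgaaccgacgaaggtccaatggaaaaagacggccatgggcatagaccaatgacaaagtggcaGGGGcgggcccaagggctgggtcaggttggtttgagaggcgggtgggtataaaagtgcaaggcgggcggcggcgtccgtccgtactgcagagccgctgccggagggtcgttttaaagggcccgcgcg
JUND: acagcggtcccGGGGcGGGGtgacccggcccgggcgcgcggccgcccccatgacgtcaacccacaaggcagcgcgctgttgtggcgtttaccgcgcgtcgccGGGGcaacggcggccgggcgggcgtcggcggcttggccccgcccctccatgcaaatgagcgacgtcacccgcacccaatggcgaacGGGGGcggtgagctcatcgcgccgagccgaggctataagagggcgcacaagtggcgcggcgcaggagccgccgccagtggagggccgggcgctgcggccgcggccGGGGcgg
RPLP1: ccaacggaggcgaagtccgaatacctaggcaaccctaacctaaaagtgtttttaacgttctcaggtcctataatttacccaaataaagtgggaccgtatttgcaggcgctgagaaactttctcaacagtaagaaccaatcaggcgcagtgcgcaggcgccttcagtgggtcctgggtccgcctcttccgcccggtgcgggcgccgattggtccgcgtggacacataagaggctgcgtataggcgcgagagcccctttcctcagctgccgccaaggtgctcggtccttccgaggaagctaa
COX7B: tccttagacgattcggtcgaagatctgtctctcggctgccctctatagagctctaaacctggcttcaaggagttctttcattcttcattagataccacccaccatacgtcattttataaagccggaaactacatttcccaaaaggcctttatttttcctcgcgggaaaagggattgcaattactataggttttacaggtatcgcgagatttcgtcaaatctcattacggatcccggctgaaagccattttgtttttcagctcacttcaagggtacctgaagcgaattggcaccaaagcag

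All 6 S9.6 libraries had a peak over each of the 4 domain promoters. The other 2 genes were chosen for lying over no region, and 0 libraries had a peak over their promoters. The P4HB promoter is 73.7% G or C with 47 CpG and 2 such G runs, TPI1 71% with 36 CpG and 4 runs, CALR 62.7% with 26 CpG and 1 run, and JUND 77% with 49 CpG and 5 runs. RPLP1 is 56% G or C with 23 CpG, and COX7B 44% with 14 CpG, and both hold 0 G runs. The contrast was not uniform. RPL35A, also among the most expressed genes over no region (510 RPKM), is 49% G or C with 13 CpG and holds 1 G run. TUBB4B, in the second widest domain (577 RPKM), is 57.3% G or C with 18 CpG, fewer than RPLP1, and holds 2 runs. Over the first 50 bases of the gene, G minus C divided by their sum was -0.3 in P4HB and -0.257 in TPI1. It was -0.333 in TUBB4B, 0.118 in CALR and 0.227 in JUND, against -0.226 in RPLP1, 0.0714 in RPL35A and 0 in COX7B. Its sign thus differed among domain promoters. Its median was 0.0857 over domain promoters, the same over promoters in narrower shared regions, and 0.0625 over all promoters. Messenger RNA was abundant on both sides, at a mean of 260 RPKM (counts scaled by gene length and library total) for P4HB, 777 for TPI1, 761 for CALR and 73.2 for JUND, against 772 for RPLP1 and 271 for COX7B.

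Over the 2287 RefSeq promoters that lay in a domain, the median G or C content was 67.0% and the median number of CpG was 26, against 58.7% and 14 over all 34961 promoters of the table. GGGG stood in 90.8% of domain promoters and in 75.1% of all promoters, and its complement CCCC in 87.5% and 73.7%. This composition was not particular to domains. The 3256 promoters in narrower shared regions had a median of 68.3% G or C and 29 CpG, with GGGG in 90%, while the 24305 promoters in no region had a median of 53.0% and 7 CpG, with GGGG in 69.2%. These are descriptions of a 300-base window, with no test.

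Before the results, 3 libraries need to be named. In shRNF8 replicates 3 and 4, peaks ran together: these libraries covered 83.5 and 79.0 Mb on chromosomes 1 to 22 and X, against 34.4 to 47.6 Mb in the other 4 S9.6 libraries, and the peak names inside their lists carry the name stems of replicates 1 and 2. Their local background, a measure of depth recovered from fold and p of each peak, was also the highest, 1.36 and 1.48 reads at its lowest against 0.698 to 1.22. Total depth of the S9.6 libraries is unknown. In the RNA data, totals were 18121181 to 20006954 counts and leaving out shScr replicate 1 took the genes past the test of shRNF8 against shScr from 356 to 3865 (edgeR adjusted p). RNF8 itself was at 28.9, 29.1 and 28.0 CPM (counts scaled by library total with TMM) in shScr and 9.33, 9.99 and 7.94 CPM in shRNF8 replicates 1 to 3 (log2 fold change -1.66, edgeR adjusted p = 0.000165), with no overlap. All 8 mesenchymal markers reached 1 RPKM, with VIM at 421 to 531 RPKM, as did 3 of 8 luminal markers (KRT8, KRT18 and FOXA1), 0 of 5 immune markers and 0 of 5 fibroblast markers; CD3E, HLA-DRA, COL1A2, DCN and LUM had 0 counts in every library.

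Width among the domains ran from 10005 to 81360 bp, with a median of 15835 bp and quartiles of 12420 and 22215 bp. A width of 20000 bp or more was reached by 547 domains and 40000 bp by 85. The threshold cut through a continuous range. Just above it lay regions over LGALS3BP (10005 bp), PTMS (10006 bp) and AP3S2 (10010 bp), with mean highest folds of 12.8, 10.8 and 5.98, and just under it regions over RBM3 (9999 bp), ATP6V1F (9995 bp) and TMEM80 (9993 bp), with mean highest folds of 11.2, 8.99 and 7.88. Here and below, the fold of a peak is the authors' enrichment over its local background, and the highest fold is that of the tallest peak of a library in the region, averaged over libraries on the log2 scale.

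How a domain was filled differed between libraries. In shScr replicates 1 and 2, peaks covered a median of 63.9% and 62.8% of a domain, in a median of 6 and 5 separate peaks, and in shRNF8 replicates 1 and 2, 58.1% and 54.1%, in 5 and 6 peaks. In shRNF8 replicates 3 and 4 the median covered share was 97.3% and 96.4%, in 2 peaks each. A single peak spanned at least 90% of the region in 13, 22, 23 and 9 domains of the first 4 libraries, and in 824 and 710 domains of shRNF8 replicates 3 and 4. In most libraries a domain was thus a run of peaks, and in shRNF8 replicates 3 and 4 often 1 continuous peak. With those libraries left out, the other 4 gave 617 regions of 10000 bp or more shared by all 4. Of the 1722 domains, 570 (33.1%) held one of these, and the 4 libraries together still covered 79.8% of the domains' length.

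**Figure D1:**
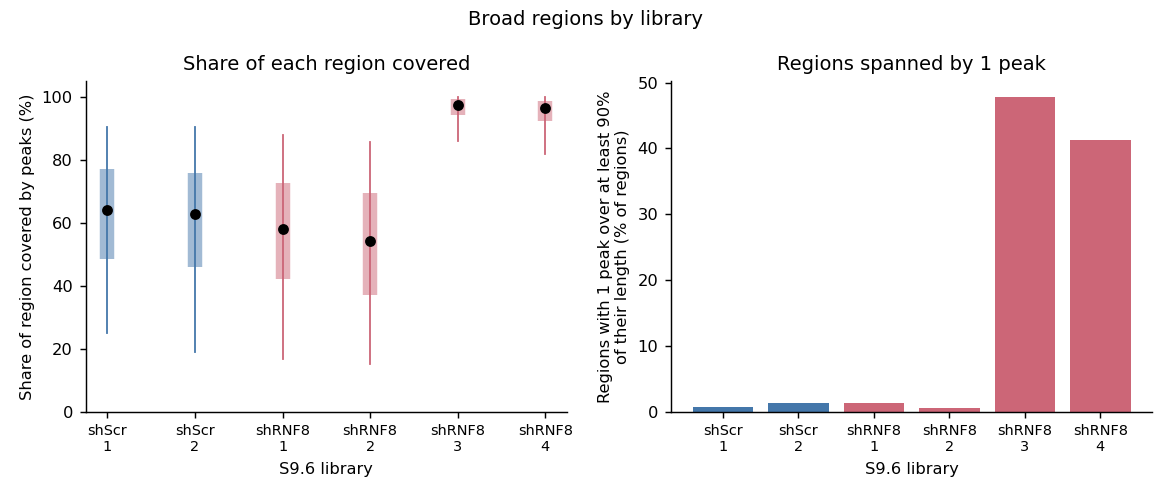
Left, the share of a domain covered by peaks in each S9.6 library (black dot, median of 1722 domains; thick bar, quartiles; thin line, the 5th to 95th percentile). Right, the percentage of domains in which 1 peak spans at least 90% of the region, which is 47.9% and 41.2% in shRNF8 replicates 3 and 4 and at most 1.34% in the other libraries.

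Peaks in domains were taller than those in narrower shared regions in every library. The median highest fold in a domain was 11.3 and 10.9 in the shScr libraries and 13.4, 10.0, 12.7 and 11.1 in shRNF8 replicates 1 to 4. In narrower shared regions it was 6.89, 6.61, 7.07, 6.12, 7.03 and 6.37 in the same order. Longer regions give more peaks to take a maximum from, and width and highest fold rose together among the domains themselves (Spearman correlation 0.50 over 1722 domains, given as a description). The tallest peak of a domain held a median of 36, 27, 31, 27, 45 and 42 reads at its summit in the 6 libraries, recovered as whole numbers for 99.0% to 99.8% of domains. The order of domains by highest fold was closest within the pairs shScr 1 and 2 (Spearman correlation 0.83), shRNF8 1 and 2 (0.86) and shRNF8 3 and 4 (0.78), and lowest between shScr replicate 1 and shRNF8 replicate 4 (0.57).

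The widest domain, chr17:81837087-81918446 (81360 bp), lay over 8 genes, among them P4HB, the beta subunit of prolyl 4-hydroxylase and a protein disulfide isomerase, and ALYREF, an mRNA export factor. Its peaks covered 49822 and 50699 bp in shScr replicates 1 and 2 and 51400, 49149, 80099 and 80193 bp in shRNF8 replicates 1 to 4. Those lengths came in 26, 27, 22 and 28 peaks in the first 4 libraries and in 4 and 5 peaks in the last 2. Its highest fold was 45.4 and 45.0 in shScr and 53.1, 31.6, 34.1 and 40.8 in shRNF8, so that the shScr values lay inside the shRNF8 range. The P4HB region was also among the 5 domains with the highest mean fold (41.0).

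The next 4 by width were chr9:137184703-137261943 (77241 bp) over 14 genes including TUBB4B, a beta tubulin, chr19:1208728-1282150 (73423 bp) over STK11, a kinase of energy sensing, and ATP5D, a subunit of the mitochondrial ATP synthase, chr12:121759391-121831411 (72021 bp) over SETD1B, a histone H3 methyltransferase, and chr19:12920335-12989230 (68896 bp) over CALR, a chaperone of the endoplasmic reticulum, and FARSA, a tRNA synthetase subunit. Their mean highest folds were 21.0, 24.3, 16.9 and 21.5. Then came chr12:6810416-6877941 (67526 bp) with TPI1, an enzyme of glycolysis, and USP5, a deubiquitinase, chr16:641495-708945 (67451 bp) with WDR90 and FAM195A, and chr19:1063307-1128588 (65282 bp) with GPX4, which reduces lipid peroxides. The last of the 10 widest were chr19:13075093-13139722 (64630 bp) with NACC1, a transcription regulator, and chr22:50170754-50231552 (60799 bp) with TRABD. In none of the 10 did peak height or covered length pass the test of shRNF8 against shScr described below (limma adjusted p from 0.456 to 0.999 for height and from 0.750 to 0.971 for covered length).

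Mean highest fold put other domains first. The domain at chr11:65412685-65450607 (37923 bp) over NEAT1, the long noncoding RNA that builds paraspeckles, reached 49.5 and 43.1 in shScr and 60.5, 41.1, 94.9 and 72.5 in shRNF8 replicates 1 to 4, a mean of 57.6. Its highest value lay in shRNF8 replicate 3, and the groups overlapped. The domain at chr17:7554641-7597605 (42965 bp) over EIF4A1, a helicase of translation initiation, and CD68, a lysosomal glycoprotein, had 68.5 and 41.5 in shScr and 76.1, 37.8, 44.3 and 40.6 in shRNF8. TNFRSF12A, the receptor of the cytokine TWEAK, lay in chr16:3016887-3052042 (35156 bp), with 36.1 and 29.9 in shScr and 74.2, 46.7, 68.4 and 35.4 in shRNF8. The domain at chr11:65875343-65892526 (17184 bp) lay over FIBP, which binds a growth factor, and an edge of FOSL1, an AP-1 transcription factor whose locus lies 89.6% in the next domain, with 52.9 and 61.7 in shScr and 52.6, 30.8, 33.7 and 32.5 in shRNF8. Of these 4, the TNFRSF12A domain had higher values in 3 of 4 shRNF8 libraries than in either shScr library and the FOSL1 domain had all 4 below both, and neither passed the test (limma adjusted p = 0.256 and 0.294).

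**Figure D2:**
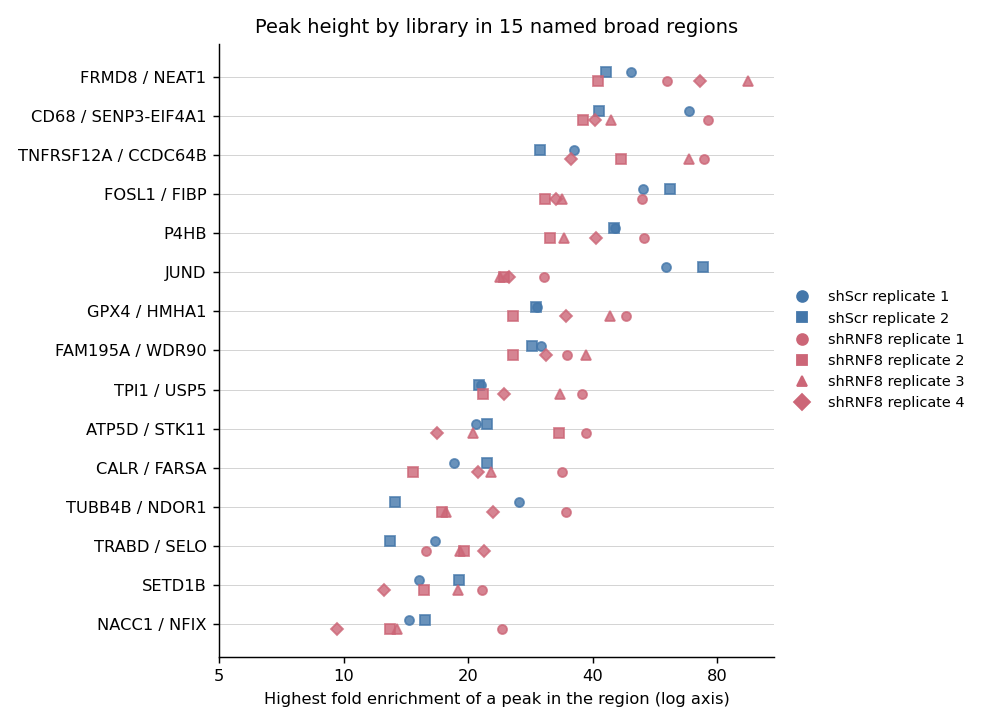
Highest fold enrichment (log axis) of a peak in each of the 6 S9.6 libraries for the 10 widest domains, the 5 with the highest mean fold and the JUND domain, named by the most expressed gene and, where different, the gene with the longest overlap. The shScr points (60.0 and 73.8) lie above all shRNF8 points (23.9 to 30.6) in the JUND domain.

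Most domains spanned more than 1 gene. The median was 2 genes, 1024 domains (59.5%) overlapped 2 or more, 672 overlapped 1 and 26 overlapped none, while 16.7% of narrower shared regions overlapped 2 or more. A whole gene lay inside 786 domains (45.6%), against 5.66% of narrower shared regions. The rule chose domains by width, with a median of 15835 bp against 3702 bp in narrower shared regions. Longer regions can hold more genes, so both contrasts are partly fixed by the rule. Of the other domains, 240 held a gene start but no whole gene, 368 a gene end but no start, and 302 lay within a gene between its start and end. Gene starts were less dense in domains than in narrower shared regions, at 61.4 against 93.7 per Mb. Of 672 domains over a single gene, 264 held its end, 172 its start, 59 both and 295 neither, and a median of 30.9% of the gene lay inside.

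Some domains stood out by gene content and were picked after their values were seen. The largest number, 23, was in chr5:141502778-141515868 (13091 bp), where the protocadherin gamma genes, cell adhesion genes that share their last exons, lie beside DIAPH1. That domain had a mean highest fold of 8.09. The widest of the 26 domains without a gene of the count table was chr22:42295593-42315955 (20363 bp), with highest folds of 6.15 and 5.21 in shScr and 4.71, 5.97, 8.75 and 7.61 in shRNF8 replicates 1 to 4.

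Within domains the gene end window held more of the tallest peaks than the shorter gene start window. Summits were assigned to a gene start (within 1000 bp), else a gene end (1000 bp before to 5000 bp after), exon, intron or intergenic sequence. Of 10332 highest summits, 1 for each library and domain, 17.0% were at a gene start, 32.1% at a gene end, 12.8% in an exon, 34.9% in an intron and 3.15% intergenic. Of the highest summits in narrower shared regions, 24.5% were at a gene start and 18.5% at a gene end. Over all summits the longer gene end window held more in both sets. In domains 11.4% of 49789 summits were at a gene start and 26.6% at a gene end, and in narrower shared regions 18.2% and 20.7% of 68086. Domain summits lay a median of 7632 bp from the nearest start. Edges of domains were not drawn to gene boundaries more than those of narrower shared regions, with 29.2% of 3444 edges within 2000 bp of a gene start or end against 36.0% of 12588. Summits of 1 domain share their library and locus, so these shares carry no test.

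**Figure D3:**
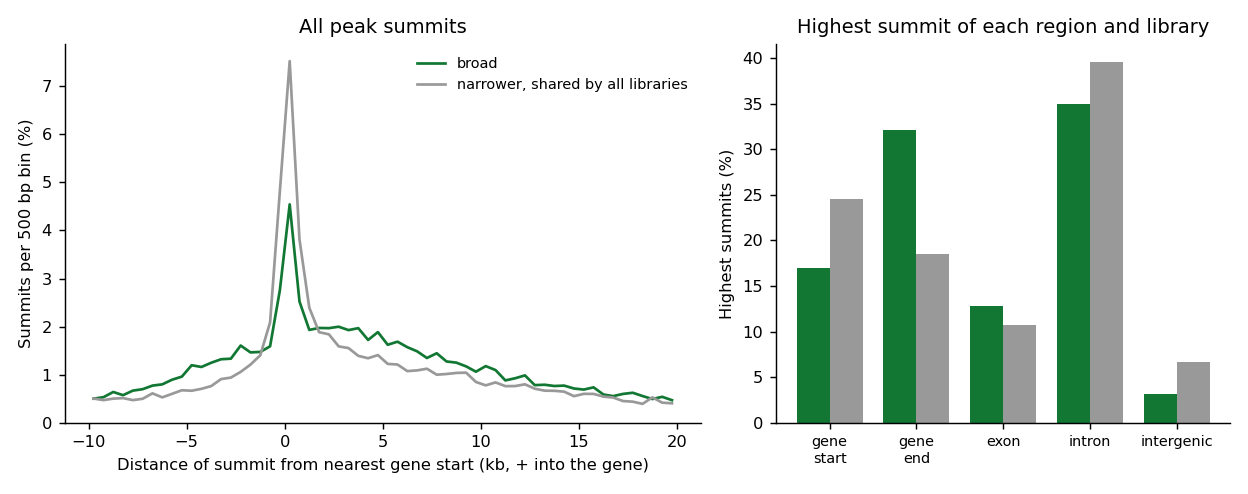
Left, the percentage of all peak summits per 500 bp bin by distance to the nearest gene start, for domains (green) and narrower shared regions (grey); the peak in the first bin past the start is 4.54% for domains and 7.52% for narrower shared regions. Right, the class of the highest summit of each region and library in the same colours, with 32.1% of domains' summits at gene ends against 18.5%.

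Chromosome 19 held the most domains, 272 (15.8%), and domains overlapped 524 of its 1707 genes (30.7%). Chromosomes 1, 17, 16, 9 and 11 followed with 180, 144, 119, 118 and 117 domains. On chromosome 16, 27.0% of genes lay over a domain, on chromosome 22 24.2% and on chromosome 17 21.9%. The fewest were on chromosome 18, with 1 domain, chromosome 13, with 9, and chromosome 21, with 14. Chromosome 19 also held the most shared regions of any width, 1007, of which 27.0% were broad. Of shared regions, 30.9% were broad on chromosome 9, 27.4% on chromosome 11 and 2.63% on chromosome 18, against 21.5% over all chromosomes.

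Domains lay over highly expressed genes. Of 26016 genes with 1 locus, 3288 (12.6%) overlapped a domain, among them 2753 protein-coding genes, 166 long noncoding RNA genes, 235 microRNA genes and 59 snoRNA genes by RefSeq. Their median level was 10.3 RPKM, against 8.55 RPKM for 3514 genes over a narrower shared region only and 0.499 RPKM for all genes, and it stayed between 9.17 and 11.1 RPKM in the 6 RNA libraries. For genes that start inside a domain the median was 8.61 RPKM. A level of 1 RPKM or more was reached by 76.2% of genes over domains and 78.1% of those over narrower shared regions only. Among detected genes split into 10 equal groups by mean RPKM, domains overlapped 2.66% of the lowest group and 35.4% of the highest, with a rise at every step between. By gene starts inside a domain the shares were 1.10% and 22.4%, without a rise at every step (8.89% in group 5 and 6.82% in group 6). Among the domains themselves, the RPKM of the most expressed gene followed width loosely (Spearman correlation 0.21 over 1696 domains with a gene) and highest fold more closely (0.35), both as descriptions. Level was no full guide: 19 genes at 100 RPKM or more, RPLP1 and COX7B among them, lay over no S9.6 region.

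**Figure D4:**
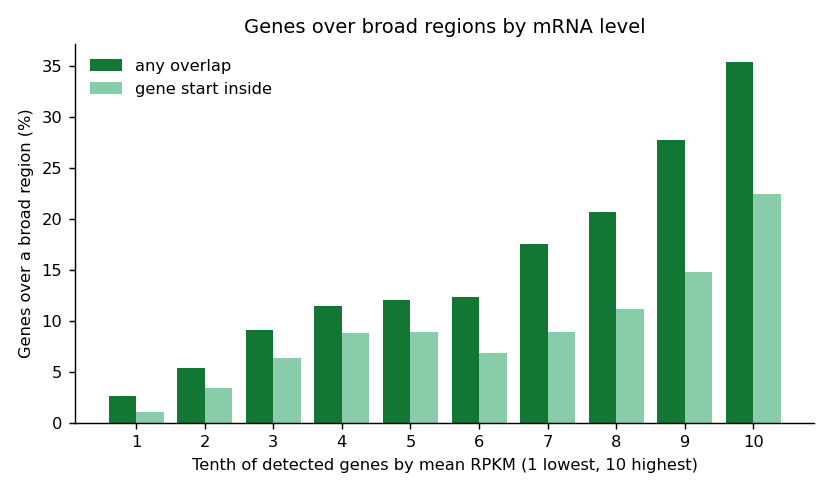
Percentage of genes that overlap a domain (dark) or start inside one (light), for detected genes in 10 equal groups by mean RPKM over the 6 RNA libraries. Overlap goes from 2.66% in the lowest group to 35.4% in the highest.

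By function, cytoskeletal, translation and glycolysis genes were often over domains and several other lists were not. Of 31 actin, myosin and cytoskeletal genes, 17 overlapped a domain, among them ACTB, FLNA, which crosslinks actin, PFN1, which binds actin monomers, and LMNA, a nuclear lamin. FLNA lay wholly inside chrX:154346887-154385153 (38267 bp), with highest folds of 27.7 and 34.5 in shScr and 63.4, 30.9, 49.0 and 29.5 in shRNF8 replicates 1 to 4. Of 38 translation factor and ribosomal protein genes 20 did so, such as EIF4A1, RPS2 and NPM1. Of 18 glycolysis genes 9 did, including GAPDH in chr12:6531697-6545177 (13481 bp), where the fold was 43.8 and 39.2 in shScr and 36.2, 21.8, 24.4 and 20.2 in shRNF8. There all shRNF8 values lay below both shScr values, and the difference did not pass (limma adjusted p = 0.224). Across all genes 12.6% overlapped a domain, and the lists differ from other genes in level.

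Among genes often used to check DRIP experiments, 10 of 14 positive control genes lay over a domain (RPL13A, CALM3, ACTB and GAPDH among them) and 0 of 4 negative ones did. Of 11 nuclear long noncoding RNA genes 3 were over domains, with MALAT1, a nuclear speckle RNA, at 27.5 and 24.8 in shScr and 35.6, 17.9, 33.3 and 25.5 in shRNF8. Among 26 immediate-early genes, which respond to growth signals within minutes, 5 were (FOSL1, JUNB, JUND, IER2 and ZFP36), as were 10 of 32 SR and hnRNP splicing factor genes, 7 of 28 collagen and matrix genes, 4 of 19 heat shock and folding genes and 4 of 21 hosts of snoRNAs and other small RNAs. Of 23 genes of R-loop nucleases, helicases and termination factors, 5 lay over domains, among them SSRP1, a subunit of the histone chaperone FACT, RNASEH2C, a subunit of RNase H2, TOP3B, a topoisomerase, and DDX39B, a helicase of mRNA export. Of 17 RNF8 signalling genes only L3MBTL2, a chromatin reader, did. None of 20 replication histone genes, 26 zinc finger genes of chromosome 19, 9 ribosomal DNA and nucleolar RNA genes, 8 luminal, 5 immune or 5 fibroblast markers did, and of 8 mesenchymal markers only AXL, a receptor tyrosine kinase, did.

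Peak height was compared between 2 shScr and 4 shRNF8 libraries with limma, on the log2 highest fold of each library centred on its median over the 8016 shared regions. Of 1722 domains, 1 had lower and 0 had higher peaks in shRNF8 at an adjusted p under 0.05, and of all shared regions 0.299% passed (0.0749% higher, 0.225% lower), so that the count in domains gives no result about them. At an unadjusted p under 0.05 there were 237 of 1722 domains and 1318 of all 8016 shared regions, a smaller share in domains. The median log2 difference was 0.13 in domains and 0.03 over all shared regions, with 62.5% and 52.6% above 0. Without shRNF8 replicates 3 and 4, 15 domains were higher and 8 lower (limma adjusted p), and 1.92% of all shared regions passed (1.15% higher, 0.773% lower).

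The domain that passed lay over JUND, an AP-1 transcription factor gene without introns, at chr19:18277361-18295486 (18126 bp). Its highest fold was 60.0 and 73.8 in shScr replicates 1 and 2 and 30.6, 24.4, 23.9 and 25.1 in shRNF8 replicates 1 to 4. The groups did not overlap. The log2 difference was -1.35 (SE 0.28, limma adjusted p = 0.0493). It was -1.26 without shRNF8 replicates 3 and 4 (limma adjusted p = 0.0579), and -1.53 and -1.17 without shScr replicate 1 or 2 (limma adjusted p = 0.517 and 0.440). It also missed the threshold without shRNF8 replicate 3 or 4 (limma adjusted p = 0.0988 and 0.0758), without centring (0.0709), and with the fold averaged by peak width in place of the highest (log2 difference -0.75, limma adjusted p = 0.229). Covered length, 14705 and 13902 bp in shScr and 3761, 9812, 17120 and 18109 bp in shRNF8, overlapped between the groups (log2 difference -0.77, limma adjusted p = 0.486). JUND mRNA, in other libraries, was at 124, 195 and 223 CPM in shScr and 111, 113 and 94.8 CPM in shRNF8, also without overlap, and its log2 fold change of -0.76 did not pass with all libraries (edgeR adjusted p = 0.0652) but did without shScr replicate 1 (-0.97, edgeR adjusted p = 9.82e-07).

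Covered length gave no call. Over domains it summed to 20.9 and 20.4 Mb in shScr and to 19.2, 18.5, 31.8 and 31.4 Mb in shRNF8 replicates 1 to 4. Thus shRNF8 replicates 1 and 2 lay below both shScr libraries and replicates 3 and 4 far above them. By limma on centred log2 covered length, 0 domains passed, and 0% of all shared regions did. At an unadjusted p under 0.05 there were 172 of 1722 domains and 980 of all 8016 shared regions. Without shRNF8 replicates 3 and 4 the adjusted count was again 0 in both sets (unadjusted, 287 domains and 1376 of all shared regions). The median log2 difference was -0.11 in domains and -0.13 over all shared regions with centring, and 0.20 and 0.18 without. With centring but without shRNF8 replicates 3 and 4 it was 0.07 in domains, so that its sign turned with either choice. Depth and the form of peaks in those libraries move with these values, and their part in the result was not tested.

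After RNase, few peaks were left in domains. On the same chromosomes the RNase-treated libraries had 254 to 1912 peaks each and the S9.6 libraries 32358 to 50963. A peak stood in 45 and 50 domains in RNase-treated shScr replicates 1 and 2 and in 13, 23, 121 and 33 domains in RNase-treated shRNF8 replicates 1 to 4. In 1572 domains no RNase-treated library had a peak, in 86 exactly 1 had one, and 150 (8.71%) had one in at least 1 library, against 218 of 6294 narrower shared regions (3.46%). As the domains were chosen on S9.6 peaks and are longer, these shares are descriptions.

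In 8 domains all 6 RNase-treated libraries had a peak. The CALR domain held the most, 15 and 16 peaks in shScr and 5, 12, 20 and 13 in shRNF8 replicates 1 to 4, with highest folds of 11.3 and 13.5 and of 8.08, 8.62, 9.73 and 7.25. Without RNase its highest folds were 18.4 and 22.2 and 33.7, 14.7, 22.8 and 21.1, above the RNase-treated value of the same number in every library. The next domain along, chr19:12989525-13007005 (17481 bp) in NFIX, a transcription factor, also kept a peak in all 6, as did 2 neighbours on chromosome 20, chr20:62295214-62317885 (22672 bp) with ADRM1, a ubiquitin receptor of the proteasome, and chr20:62321684-62360266 (38583 bp) in LAMA5, a laminin chain. In the LAMA5 domain the RNase-treated folds were 6.24 and 6.23 in shScr and 7.87, 11.3, 18.7 and 14.5 in shRNF8. The others were chr17:81249482-81264872 (15391 bp) in SLC38A10, chr1:2310106-2325096 (14991 bp) with SKI and MORN1, chr19:2419141-2432778 (13638 bp) with LMNB2, a nuclear lamin, and chr21:10718790-10730829 (12040 bp), which overlaps no gene. In the SLC38A10 domain the RNase-treated folds were 9.59 and 9.39 in shScr and 7.9, 9.29, 20.8 and 13.2 in shRNF8, against 14.2 and 8.48 and 16.9, 16.9, 11.2 and 12.3 without treatment. The treated value was thus the higher one in shScr replicate 2 and shRNF8 replicates 3 and 4.

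The domain on chromosome 21 went against its label as an R-loop. Its highest fold was 9.66 and 6.65 in shScr and 13.5, 9.24, 7.03 and 8.2 in shRNF8 with S9.6 alone, but 33.7 and 36.6 in shScr and 34.5, 29.3, 34.5 and 28.7 in shRNF8 after RNase. The RNase-treated value was higher in all 6 libraries, and 1 RNase-treated peak spanned all 12040 bp in each. In the LMNB2 domain, RNase-treated peaks covered 2032 and 2960 bp in shScr replicates 1 and 2 and 337, 773, 13507 and 12929 bp in shRNF8 replicates 1 to 4, so that nearly the whole domain remained in the last 2.

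Genes over domains were compared between the hairpins in the RNA data, which took no part in choosing the domains. Of 2667 such genes tested, 51 fell and 9 rose in shRNF8 (1.91% and 0.337%, edgeR quasi-likelihood test, adjusted p under 0.05). Of all 14018 genes tested 2.54% passed (1.57% fell and 0.97% rose), so the share that fell was near that of all genes. The median log2 fold change was -0.07 over genes of domains and -0.0048 over all genes, and 62.7% and 50.8% were below 0. Over 2960 genes of narrower shared regions only, 73 fell and 16 rose, with a median of -0.02. Without shScr replicate 1, 531 of 2689 genes of domains fell and 261 rose (19.7% and 9.71%), against 14.3% and 12.8% of all genes (27.1% in all). As the files give no strand option, reads of overlapping genes cannot be told apart.

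PLCD3, a phospholipase C, had the smallest p of the genes that fell. It was at 214, 196 and 193 CPM in shScr and 76.5, 78.1 and 65.9 CPM in shRNF8 (log2 fold change -1.45, SE 0.10, edgeR adjusted p = 0.000111). Its domain, chr17:45094730-45122169 (27440 bp), holds the gene end but not the start, and the highest fold there was 15.5 and 16.3 in shScr and 18.8, 10.7, 13.0 and 13.2 in shRNF8, so that mRNA separated the groups and peak height did not (limma adjusted p = 0.745). TBC1D10B, which acts on Rab GTPases, was at 93.2, 79.6 and 91.2 CPM in shScr and 41.0, 38.4 and 37.5 CPM in shRNF8. PDGFA, a growth factor, was at 46.2, 45.9 and 46.2 against 24.6, 26.4 and 24.9 CPM. COPE, a subunit of the coat of Golgi vesicles, was at 165, 160 and 163 against 104, 108 and 101 CPM, and lies wholly inside a domain of 55355 bp. In all 4 the groups did not overlap, and each passed with any 1 RNA library left out (largest edgeR adjusted p of 0.0033, 0.0187, 0.0324 and 0.0415 in that order).

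The other 8 of the 12 with the smallest p were TCOF1, needed for transcription of ribosomal RNA genes, EEF1A2, a translation elongation factor, YIPF2, CNNM3, GBGT1, PDAP1, DOT1L, which methylates histone H3, and CBFA2T2, a corepressor. Their log2 fold changes ran from -0.99 in TCOF1 to -0.59 in DOT1L, with no overlap of the groups. Each lost its call when at least 1 of the 6 libraries was left out. Height in the domains of these 12 genes did not pass (limma adjusted p from 0.203 to 0.962). A domain could lie mostly outside its gene: 3.78% of the CBFA2T2 locus lay inside, against 100% for YIPF2 and PDAP1.

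VGF, a secreted neuropeptide precursor, was the one of the 9 risen genes that passed with any library left out (largest edgeR adjusted p of 0.0134). It was at 342, 294 and 335 CPM in shScr and 729, 813 and 619 CPM in shRNF8 (log2 fold change 1.15, SE 0.11, edgeR adjusted p = 0.00126), without overlap. The gene lies inside chr7:101150710-101173793 (23084 bp), where the highest fold was 26.3 and 25 in shScr and 50, 23.2, 19.7 and 11 in shRNF8, a wide spread around the shScr values. The others were PIK3R3, a regulatory subunit of PI3 kinase, SMARCD3, a subunit of SWI/SNF remodelling complexes, ABR, ELFN1, POLR2A, the largest subunit of RNA polymerase II, UNC13D, which acts in granule release, TLCD1 and MARCKSL1. Overlap of any length counted: 0.634% of the PIK3R3 locus and 9.43% of the ABR locus lay inside a domain, against 100% for TLCD1 and MARCKSL1. POLR2A was at 330, 261 and 273 CPM in shScr and 437, 432 and 364 CPM in shRNF8 (log2 fold change 0.51, edgeR adjusted p = 0.0402). Those 8 ran from 0.38 in MARCKSL1 to 1.79 in ELFN1, a gene of low level at 0.309, 0.704 and 0.608 CPM in shScr and 1.60, 1.54 and 2.52 CPM in shRNF8.

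**Figure D5:**
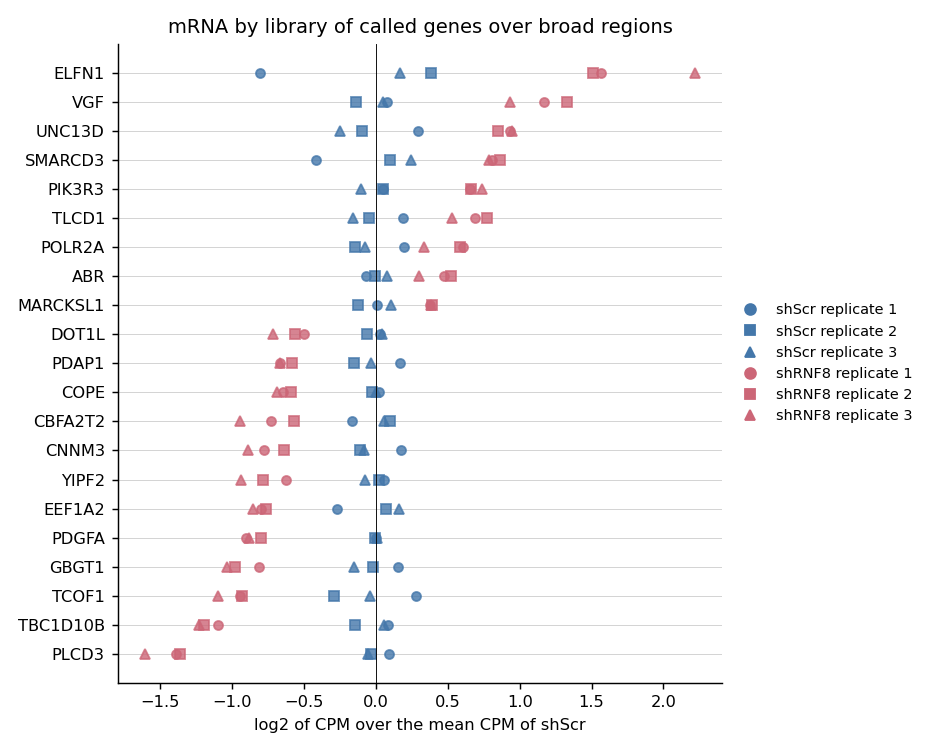
log2 of CPM over the mean CPM of shScr in each of 6 RNA libraries, for the 12 fallen genes with the smallest p and all 9 risen genes over domains. PLCD3 and TBC1D10B lie farthest below 0 in shRNF8 and ELFN1 and VGF farthest above.

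Genes of the widest and tallest domains mostly did not pass. P4HB was at 615, 677 and 712 CPM in shScr and 684, 714 and 621 CPM in shRNF8 (edgeR adjusted p = 0.961). GPX4 was at 179, 194 and 208 against 159, 150 and 145 CPM, without overlap, with a log2 fold change of -0.36 (edgeR adjusted p = 0.0650; without shScr replicate 1, -0.41 and 0.00116). NEAT1 was at 131, 126 and 146 against 101, 99.9 and 118 CPM (log2 fold change -0.34, edgeR adjusted p = 0.0907). LAMA5, named for its RNase-treated peaks and in neither of these groups, was at 293, 362 and 402 against 270, 239 and 189 CPM (log2 fold change -0.60, edgeR adjusted p = 0.0587). CALR, TPI1, TUBB4B and NACC1 did not pass either (edgeR adjusted p from 0.321 to 0.997). Of the 17 cytoskeletal, 19 tested translation and 9 glycolysis genes over domains, 0 passed. COL7A1, a collagen, fell among 7 matrix genes (log2 fold change -0.56, edgeR adjusted p = 0.0338) and SRSF4, a splicing factor, among 10 SR and hnRNP genes (-0.57, edgeR adjusted p = 0.0166). With 2.54% of all genes passing, counts in lists this small give no result about the lists.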

How the data were processed

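The members and gene lists were chosen with earlier results of these data known. Per the file headers, the authors counted read pairs with featureCounts 2.0.1, and the deposited table gives raw counts for 26485 genes; 26016 had 1 locus on chromosomes 1 to 22 and X. Each library has its own deposited peak list, in which the authors give the fold enrichment over local background (a linear ratio), -log10 p and -log10 q. The submitters' processing notes name MACS2 2.2.7.1, Bowtie2 2.2.6, STAR 2.7.9a and hg38, with no roles. Inputs were not analysed here, and 1 gene of the lists is not reported here.

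Peaks were merged in Python 3.11.15. Height and covered length were tested with limma 3.58.1 (trend) over 8016 shared regions, counts with edgeR 4.0.16 (filterByExpr, TMM, glmQLFit robust, glmQLFTest) over 14018 genes, both with the hairpin as the only term and Benjamini-Hochberg adjustment. CPM values are TMM-scaled, and RPKM uses the deposited gene length and total count. The summit pileup is the whole number that returns the deposited -log10 p to within 0.002 given the fold with a pseudocount of 1. Merging, limma and edgeR were tested on simulated data. Gene symbols of the table matched RefSeq (GRCh38.p14) for 24881 genes.

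Named regions were the 10 widest domains, the 5 with the highest mean height, those past a test, the 3 on each side of 10000 bp, and the 5 with peaks in the most RNase-treated libraries, ties by width. Named genes were the most expressed and longest overlapping gene of each, up to 12 called genes in each direction by p, RNF8, and up to 4 of each list by RPKM; list counts name further members, and the remaining 3 domains with 6 RNase-treated libraries were named after their values were seen. Alternatives were other widths, merging distance, stricter peaks, centring, a replicate block, scaling, the filter, DESeq2 1.42.0 and leaving out libraries; leaving out shRNF8 replicates 3 and 4 together was chosen after seeing the data.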

Additional observations from a re-analysis of the deposited data

Results flagged for a closer look

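Of 80 groups of 4 shRNF8 libraries examined, 5 had a library far from the other 3. For measured values chance alone marks about 1 group in 20, but this rate does not hold for small counts, where any count above 0 beside 3 libraries at 0 is marked. In the FOSL1 and FIBP domain the highest fold was 52.6 in shRNF8 replicate 1, against 30.8, 33.7 and 32.5 in replicates 2 to 4. The other 4 were numbers of peaks in RNase-treated shRNF8 replicate 3: 2 in the ATP5D domain, 1 in the TPI1 domain, 1 in the JUND domain and 1 in the PTMS domain, where the other RNase-treated shRNF8 libraries had 0. That library held the most peaks of all RNase-treated libraries, 1912.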

How the results depend on the processing

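The number of domains was 3839 at a width of 5000 bp, 547 at 20000 bp, 617 without shRNF8 replicates 3 and 4, and 1395 to 1722 with 1 library left out; it stayed within 1.5 times with merging up to 500 bp apart (2362), with peaks of -log10 q of at least 5 (1629), or with at least 25% covered in each library (1421). For peak height, domains past the limma test were 0 without centring or with the width-weighted mean fold, 4 with stricter peaks (3 higher, 1 lower), 23 without shRNF8 replicates 3 and 4, and 0 to 3 with 1 library left out. With stricter peaks, 12 of 5343 shared regions were higher and 20 lower. Without shRNF8 replicate 1, which gave the 3 domains, 11 of 8016 shared regions were higher and 28 lower. For covered length they were 2 with stricter peaks and 0 to 1 with 1 shRNF8 library left out. Over all shared regions these counts were the same, 2 of 5343 and 0 to 1 of 8016. The replicate number as a block, which compares only shRNF8 replicates 1 and 2 with shScr, gave 80 domains by height (58 higher, 22 lower) and 137 by covered length (58 higher, 79 lower). Over all 8016 shared regions the block gave 268 higher and 199 lower by height, and 196 higher and 243 lower by covered length. The labels do not say that numbers pair samples. Same-numbered RNA libraries deviated together with correlations of -0.05, 0.11 and -0.23, and the block gave 89 genes of domains against 60. Over all 14018 genes tested, 205 rose and 296 fell with the block. Genes of domains past the test were 137 without a filter, 195 with DESeq2, and 5 to 792 with 1 library left out (792 without shScr replicate 1, 5 without shRNF8 replicate 3). They were 25 of 1535 tested where the start lies inside and 29 of 1571 where at least 50% of the gene does, in a fit that 2.54% of all genes passed. Over all genes tested, 267 of 20008 rose and 381 fell without a filter, and 324 of 14018 rose and 535 fell with DESeq2. Counts over all genes moved with the library left out too: 1823 of 14259 rose and 2042 fell without shScr replicate 1. Without shRNF8 replicate 3, 17 of 14287 rose and 29 fell. The median level was 8.61 RPKM for genes that start inside. RNase-treated peaks of -log10 q of at least 5 stood in 84 domains. The median log2 difference in covered length over domains, -0.11 with centring, turned to 0.20 without centring and to 0.07 without shRNF8 replicates 3 and 4 or with the replicate block. The height calls, 0 higher and 1 lower with all libraries, were mostly higher with the block and without shRNF8 replicates 3 and 4 (15 higher, 8 lower). Calls over all shared regions were mostly higher in both settings too (92 higher and 62 lower without shRNF8 replicates 3 and 4). The causes were not tested. Total depth of the S9.6 libraries is unknown, and 2 shScr libraries limit what height and covered length can show.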

Other observations

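Highest folds were also read in domains over genes of R-loop factors. In the SSRP1 domain (chr11:57294087-57333529, 39443 bp) the highest fold was 24.7 and 29.6 in shScr and 40, 31.9, 49.2 and 35.3 in shRNF8 replicates 1 to 4, so that all shRNF8 values lay above both shScr values, and the difference did not pass (limma adjusted p = 0.353). The RNASEH2C domain (17309 bp) had 20.5 and 14.6 in shScr and 24, 15.4, 30.3 and 12.4 in shRNF8, and the TOP3B domain (18856 bp) 14.4 and 14.1 in shScr and 13.9, 13.3, 17.8 and 16.9 in shRNF8. Neither mRNA nor peak height of these 3 genes passed the test.

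The domain with the second highest number of genes, 17, was chr16:29789215-29826140 (36926 bp), over KIF22, a kinesin, MAZ, a zinc finger factor, and MVP, the major vault protein, beside SULT1A and SLX1 genes, which have near-identical copies. Its highest fold was 20.6 and 18.8 in shScr and 42.2, 22.2, 37.7 and 41 in shRNF8. In the SKI and MORN1 domain, RNase-treated folds were 14.5 and 9.98 in shScr and 12.5, 13.3, 18.2 and 11.7 in shRNF8, against 8.79 and 10.7 and 9.17, 14.7, 8.16 and 12.3 without treatment, so that the treated value was the higher one in shScr replicate 1 and shRNF8 replicates 1 and 3.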
